A study of Mus musculus with 15 samples.

Results

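Prostaglandins are short-lived lipid signals that cells make from arachidonic acid cut out of their membranes. A cyclooxygenase turns arachidonic acid into prostaglandin H2, and terminal synthases turn that into prostaglandin E2, prostacyclin and other prostanoids. These leave the cell, act on receptors of the same or nearby cells, and are taken up again by a transporter for breakdown inside the cell. Fibroblasts are a known source of prostaglandin E2 in wounds and inflamed tissue.

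Described here are 9 genes of this pathway out of the 55487 genes in the gene table: the cyclooxygenases Ptgs1 and Ptgs2, the synthases Ptges, Ptges2, Ptges3 and Ptgis, the uptake transporter Slco2a1, and the receptors Ptger4 and Ptgfr. They were found by symbol, and all 9 symbols were in the table. The genes were selected on their values in knockout against wild type in these same libraries. For that contrast their levels, fold changes and the count called in the fit over all genes are therefore a description, with no p-value and no weight as evidence. Tests are given for unequal use of the parental genomes within a group, and for other pathway genes. The lists of those other genes were chosen with earlier results of these data known, so how many of a list were called is a description.

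The libraries hold polyA RNA of TTF cells, an abbreviation usually read as tail-tip fibroblasts, from female C57BL6/CAST hybrid mice. The series compared wild-type cells with cells that lack SIRT7, a nuclear deacylase of the sirtuin family, and its title names dosage compensation of the X chromosome. The 3 wild-type libraries (genotype WT) are called WT 1, WT 2 and WT 3, and the 3 knockout libraries (genotype SIRT7-KO) KO 2, KO 9 and KO 22 after the numbers of their lines. No treatment, time or animal age is given in the labels, and both groups share sex, cross and cell type. The labels do not say that the wild-type libraries came from separate animals or cultures, nor how the lines were made, so the p-values below reflect library-to-library spread alone, which may be technical. Bulk RNA was measured, so fewer cells of a type and less RNA per cell cannot be told apart.

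Total gene counts were 61065582 to 61506413 per library. The knockout lines varied more among themselves, with a biological coefficient of variation of 0.378 against 0.135 in wild type. Pearson's r of log2 levels was 0.9944 to 0.9948 between wild-type libraries and 0.9683 to 0.9796 between knockout lines. Between a wild-type and a knockout library it was 0.9653 to 0.9739, a range that overlaps with that between knockout lines. The whole Sirt7 gene was counted at 833, 1107 and 598 in wild type against 512, 694 and 787 in the lines KO 2, 9 and 22, which overlap, while its first-numbered annotated transcript was counted at 53, 58 and 159 against 2, 0 and 0. All 16 fibroblast markers were detected in both groups, with a summed level of 19162 to 19369 CPM (counts scaled to a library total of 1000000) in wild type and 29046 to 37491 CPM in knockout, and 3 were called higher. Col1a1 was the largest part of these sums, at 7380 to 7450 CPM in wild type and 11500 to 15800 CPM in knockout. Others did not follow the sum, though 0 were called lower. Fbln1 was lower in every line, at 120 to 276 CPM against 400 to 418 CPM. Pdgfra was at 9.46, 11.4 and 81.3 CPM in KO 2, 9 and 22 against 68.6 to 76.0 CPM. Thy1 was lower in every line, by amounts that varied. It stood at 101, 98.6 and 98.9 CPM in wild type and 21.6, 0.195 and 71.5 CPM in KO 2, 9 and 22. Smooth muscle and pericyte markers summed to 592 to 608 CPM in the wild-type and 1516 to 1769 CPM in the knockout libraries, with 3 of 11 called higher and 1 lower. Actg2 made up most of these sums, at 329 to 351 CPM in wild type and 1250 to 1320 CPM in knockout. Cnn1 went the other way, at 14.7 to 20.6 CPM against 1.15 to 2.55 CPM. The 8 skeletal muscle markers summed to 18.1 to 21.7 CPM against 49.3 to 112 CPM, with 1 called higher; most of both sums was Acta1, and Pax7, Myod1 and Myog were at 0 in all libraries. The 8 Schwann cell and melanocyte markers summed to 15.9 to 17.6 CPM against 8.37 to 12.9 CPM, with 1 called lower and Tyr at 0 in all libraries. The part of these marker differences in the results below was not tested. Of the endothelial markers, Cdh5, Tie1 and Cldn5 were at 0 in all 6 libraries, and the 12 summed to 19.8 to 22.05 CPM in wild-type and 14.7 to 25.9 CPM in knockout libraries. Of 16 macrophage and leukocyte markers, 8 were at 0 in all libraries, among them Adgre1, Tyrobp and Spi1, and the list summed to 15.4 to 16.6 CPM and 19.9 to 29.9 CPM.

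The upstream sequences of 4 of the genes are shown because they stand for the range seen among the levels: Ptges and Slco2a1 were nearly lost in knockout, Ptgs1 was intermediate, and Ptges3 was slightly higher. Of the 9 genes, 8 matched the RefSeq promoter sequences (build GRCm38.p6), all but Ptgis. Each stretch runs 5′ to 3′ on the gene's own strand, and capitals mark a GC box (GGGCGG) or a TATA box (TATAAA), searched on both strands. The Ptges stretch is chr2:30903298-30903547 on the minus strand and ends 1 base before the GENCODE transcript that held most of its counts. The Ptgs1 stretch is chr2:36230176-36230425 on the plus strand, and the Ptges3 stretch is chr10:128058732-128058953 on the plus strand. For Slco2a1 the 250 bases before the RefSeq start lie inside the first exon of the gene's main GENCODE transcript, so 30 bases around its TATA box are shown, chr9:103008446-103008475 on the plus strand.
Ptges: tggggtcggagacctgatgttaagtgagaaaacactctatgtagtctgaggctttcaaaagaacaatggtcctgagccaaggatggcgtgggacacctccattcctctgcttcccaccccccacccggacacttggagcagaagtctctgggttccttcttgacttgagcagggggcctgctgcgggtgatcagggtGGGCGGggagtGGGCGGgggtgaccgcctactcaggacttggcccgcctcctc
Slco2a1: atcgctgccactTATAAAaacttctgggcg
Ptgs1: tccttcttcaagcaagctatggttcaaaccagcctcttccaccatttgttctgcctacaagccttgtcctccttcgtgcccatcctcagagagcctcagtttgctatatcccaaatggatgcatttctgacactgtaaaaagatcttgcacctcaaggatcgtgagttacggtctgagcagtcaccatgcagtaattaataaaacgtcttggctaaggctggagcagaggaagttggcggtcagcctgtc
Ptges3: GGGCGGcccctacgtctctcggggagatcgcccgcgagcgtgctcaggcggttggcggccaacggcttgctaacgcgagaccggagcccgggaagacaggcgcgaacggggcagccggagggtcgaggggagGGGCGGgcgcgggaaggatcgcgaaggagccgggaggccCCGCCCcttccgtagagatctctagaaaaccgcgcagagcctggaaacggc

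In these letters Ptges holds 2 GC boxes, 53 and 42 bases before its RefSeq start, and no TATA box. Slco2a1 holds a TATA box 29 bases before its RefSeq start and, in the part not shown, a GC box 106 bases before it. Ptgs1 holds none of the motifs searched. Ptges3 holds 3 GC boxes. Among the 250 bases before the start of 32851 RefSeq promoters, 32.7% held a GC box and 12.4% a TATA box. The other motifs searched were the E-box CACGTG (6.02% of promoters), the cyclic AMP response core ACGTCA (6.47%), the AP-1 motif TGANTCA (6.75%) and the kappa-B motif GGANTTTCC (1.07%), and of these only Ptges2 held one, an E-box. Base composition differed widely. The 250 bases held 48.0% G and C with 5 CpG pairs in Ptgs1, 59.6% with 8 in Ptges, 63.2% with 12 in Slco2a1 and 73.2% with 38 in Ptges3, beside medians of 52.4% and 6 over all promoters. A match or its absence says nothing about which factors bind there.

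The cyclooxygenases catalyse the first committed step. Ptgs1 (ENSMUSG00000047250, GRCm38 chromosome 2, 36230426 to 36252272, plus strand) encodes COX-1, the constitutive form. It stood at 27.1, 25.7 and 25.4 CPM in WT 1, 2 and 3 and at 13.8, 10.2 and 8.42 CPM in KO 2, 9 and 22. Every knockout library was below every wild-type library, and the lowest was KO 22. The log2 fold change of knockout against wild type was -1.25 ± 0.18 (SE). At least 95.3% of its counts in each library belonged to its main protein-coding transcript.

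Ptgs2 (ENSMUSG00000032487, chromosome 1, 150100031 to 150108227, plus strand) encodes COX-2, the form induced by cytokines and growth factors. It stood at 38.8, 35.5 and 38.0 CPM in wild type and at 28.2, 32.0 and 11.7 CPM in KO 2, 9 and 22. The groups did not overlap, but KO 2 and KO 9 were close to wild type and KO 22 was well below the other libraries. The log2 fold change was -0.62 ± 0.34 (SE), or -0.30 without KO 22.

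The synthases showed opposite extremes. Ptges (ENSMUSG00000050737, chromosome 2, 30889471 to 30929863, minus strand) encodes the inducible microsomal prostaglandin E synthase, which is usually coupled to COX-2. It stood at 43.1, 52.7 and 49.0 CPM in wild type and at 0.835, 0.260 and 0.343 CPM in KO 2, 9 and 22. In counts this was 2634, 3238 and 3017 against 51, 16 and 21, so it was close to lost in all 3 knockout lines. The mean level was 101-fold lower, from 48.3 ± 4.84 to 0.480 ± 0.311 CPM (SD, n = 3 each), and the log2 fold change was -6.62 ± 0.44 (SE), or -7.27 without KO 2, the line with the most Ptges left. Its main transcript held 2624, 3234 and 3009 counts in wild type and 44, 14 and 21 in knockout.

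Ptges2 (ENSMUSG00000026820, chromosome 2, 32395896 to 32405772, plus strand) encodes a second membrane-associated prostaglandin E synthase. It stood at 61.9, 56.7 and 59.9 CPM in wild type and at 54.0, 48.5 and 40.1 CPM in KO 2, 9 and 22. The groups did not overlap, though KO 2 was within 3 CPM of the lowest wild-type library. The log2 fold change was -0.30 ± 0.12 (SE). It lies on the same chromosome as Ptges.

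Ptges3 (ENSMUSG00000071072, chromosome 10, 128058954 to 128077272, plus strand) encodes the cytosolic synthase, better known as the HSP90 co-chaperone p23. It stood at 249, 265 and 263 CPM in wild type and at 329, 279 and 274 CPM in KO 2, 9 and 22. All knockout libraries were above wild type, KO 2 by the most, and the log2 fold change was 0.21 ± 0.09 (SE). A processed pseudogene, Ptges3-ps, had 470 to 486 counts in wild type and 525 to 587 in knockout, so some reads may be split between copies. Ptgis, the prostacyclin synthase (ENSMUSG00000017969, chromosome 2, 167191805 to 167240604, minus strand), had 0, 3 and 0 counts in wild type and 0 in each knockout library. It was below the filter on low counts and was not tested.

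The message of the uptake transporter was also close to lost. Slco2a1 (ENSMUSG00000032548, chromosome 9, 102988712 to 103096002, plus strand) encodes the prostaglandin transporter, which carries prostaglandins from outside into the cell. It stood at 61.5, 55.2 and 60.8 CPM in wild type and at 1.18, 1.02 and 0.539 CPM in KO 2, 9 and 22. In counts this was 3753, 3391 and 3741 against 72, 63 and 33, low in every knockout line. The mean level was 64.7-fold lower, from 59.2 ± 3.44 to 0.914 ± 0.334 CPM (SD, n = 3 each), and the log2 fold change was -5.99 ± 0.29 (SE). Its main protein-coding transcript held 3713, 3373 and 3718 counts in wild type and 71, 61 and 30 in knockout. An antisense gene that overlaps it, Gm47468, had at most 12 counts in a library.

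The receptors split by line. Ptger4 (ENSMUSG00000039942, chromosome 15, 5206661 to 5244187, minus strand) encodes EP4, a prostaglandin E2 receptor that raises cyclic AMP. It stood at 22.1, 21.8 and 23.7 CPM in wild type and at 10.6, 10.9 and 19.7 CPM in KO 2, 9 and 22. KO 2 and KO 9 were well below wild type, while KO 22 was only just below it, and the log2 fold change was -0.68 ± 0.27 (SE), or -1.05 without KO 22. Ttc33 overlaps Ptger4 on the other strand with 1287 to 2079 counts, and how the counting treated strand is not stated, so reads of the overlap may be shared.

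Ptgfr (ENSMUSG00000028036, chromosome 3, 151796502 to 151837630, minus strand) encodes FP, the receptor for prostaglandin F2 alpha, which signals through calcium. It stood at 4.094, 4.396 and 4.552 CPM in wild type and at 1.23, 1.66 and 5.07 CPM in KO 2, 9 and 22. The groups overlapped: KO 2 and KO 9 were below wild type and KO 22 above it. The log2 fold change was -0.67 ± 0.53 (SE), or -1.57 without KO 22. KO 22 was thus the line with the least Ptgs2 and the most Ptger4 and Ptgfr.

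**Figure D1:**
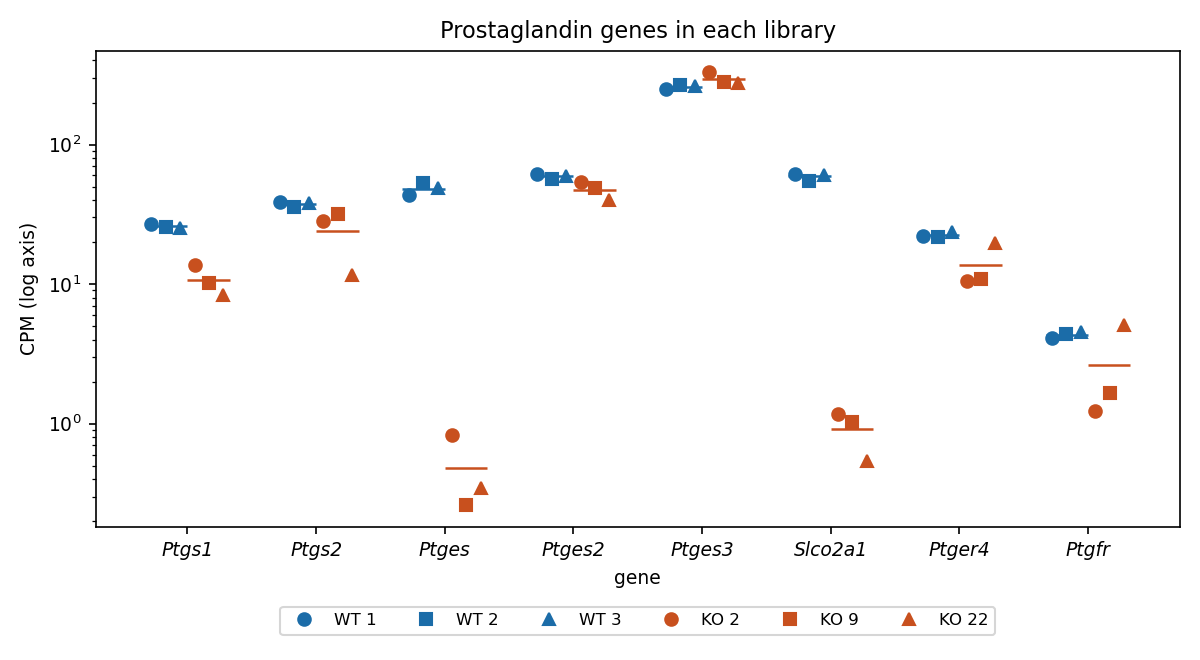
Level of 8 of the genes in each library, in CPM on a log axis, with blue for the 3 wild-type libraries and orange for KO 2, KO 9 and KO 22; short lines are group means. Ptgis, with 0 to 3 counts, is not drawn. Ptges and Slco2a1 sit near or below 1 CPM in all knockout libraries against over 40 CPM in wild type, while Ptgfr overlaps between groups.

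Of the 9 genes, 8 passed the filter on low counts. In the fit over all genes 3 were called lower (Ptgs1, Ptges and Slco2a1) and 0 higher, at an adjusted p under 0.05. Of the 16678 genes tested, 3.19% were called lower and 3.54% higher. Of the members, 6 lay lower in knockout with no overlap of groups and 1 lay higher, where 20.2% and 15.7% of all tested genes did. The median log2 fold change of the 8 was -0.67 against 0.02 over all genes tested. Because these genes were chosen by this contrast, nothing is read from the counts. The count also moved with the libraries used: it was 2 without WT 1, WT 2 or WT 3, where Ptgs1 was not called, and 5 without KO 22, where Ptger4 and Ptgfr were added.

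Levels of different genes were compared per transcript length, in TPM, which divides each transcript's counts by its length and scales each library to the same sum. In wild type Ptges3 was highest at 236 ± 9.43 TPM (SD, n = 3, as for the other TPM values). Ptges at 23.9 ± 2.17 TPM and Ptges2 at 23.4 ± 1.87 TPM followed, and their libraries overlapped. Ptgs1 came next at 18.1 ± 0.574 TPM. Ptgs2 at 15.02 ± 0.785 TPM and Slco2a1 at 14.9 ± 0.931 TPM overlapped too, ahead of Ptger4 at 12.1 ± 0.601 TPM and Ptgfr at 1.37 ± 0.133 TPM. Among the 3 prostaglandin E synthases, wild-type cells thus held about as much Ptges as Ptges2 message.

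In knockout the order was different below the top. Ptges3 stood at 280 ± 21.1 TPM and Ptges2 at 19.1 ± 2.16 TPM, apart from the rest. Ptgs2 at 10.1 ± 4.48 TPM, Ptgs1 at 7.85 ± 1.62 TPM and Ptger4 at 7.82 ± 3.14 TPM overlapped. Ptgfr at 0.943 ± 0.680 TPM overlapped with Ptges at 0.400 ± 0.339 TPM, and Ptges in turn overlapped with Slco2a1 at 0.246 ± 0.0784 TPM, so these lowest places have no firm order. Ptgis was at 0. Ptges2 was thus the more abundant membrane-associated prostaglandin E synthase in every knockout library, with 16.8 to 21.1 TPM against 0.181 to 0.790 TPM for Ptges.

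Reads that cover a base at which the parental strains differ were split by the authors into genome 1 and genome 2, and the sources do not say which strain either one is. Within a group, unequal counts from the 2 genomes were tested over all genes with enough assigned counts. The test was against equal counts, not against the share of the gene's chromosome. Ptges2 and Ptgis had no assigned counts, so 7 of the 9 genes were tested. In wild type 5 of them were called, beside 71.0% of the 12833 genes tested. In knockout 3 were called, beside 30.9% of 12996. Neither count stands far from its background.

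Slco2a1 came almost wholly from genome 2 in wild type. It had 13, 22 and 17 counts from genome 1 and 2659, 2514 and 2637 from genome 2 in WT 1, 2 and 3, a genome 1 share of 0.665% ± 0.192 (SD, n = 3). The log2 ratio of genome 1 to genome 2 was -7.22 ± 0.18 (SE) with an adjusted p of 0.000108, and genome 2 was ahead in all 3 libraries. All of chromosome 9 had a genome 1 share of 36.6% in wild type and 48.4% in knockout, a move in the same direction as that of Slco2a1. By line the chromosome 9 share was 42.4%, 56.8% and 45.8% in KO 2, 9 and 22. In these lines Slco2a1 had 38, 32 and 23 counts from genome 1 and 27, 9 and 0 from genome 2, so genome 1 was ahead in every line. The shares were 58.5% (95% Wilson interval 46.3 to 69.6), 78.0% (63.3 to 88.0) and 100% (85.7 to 100), and the test within knockout gave an adjusted p of 0.266. These intervals cover counting error only. The difference between groups thus lay in the genome 2 counts, which were 217-fold lower in knockout over the 3 libraries, while the few genome 1 counts were 1.79 times those of wild type.

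Ptges behaved otherwise. It had 1661, 2039 and 2009 counts from genome 1 and 654, 780 and 664 from genome 2 in wild type, a genome 1 share of 73.1% ± 1.82 (SD, n = 3) with an adjusted p of 0.000331. In KO 2, 9 and 22 it had 37, 8 and 11 counts from genome 1 and 7, 3 and 11 from genome 2, a share of 68.9% ± 17.4 (SD, n = 3) with an adjusted p of 0.248. Both genomes were low together, genome 1 by 102-fold and genome 2 by 99.8-fold. All of chromosome 2 had a genome 1 share of 60.0% in wild type and 57.6% in knockout.

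**Figure D2:**
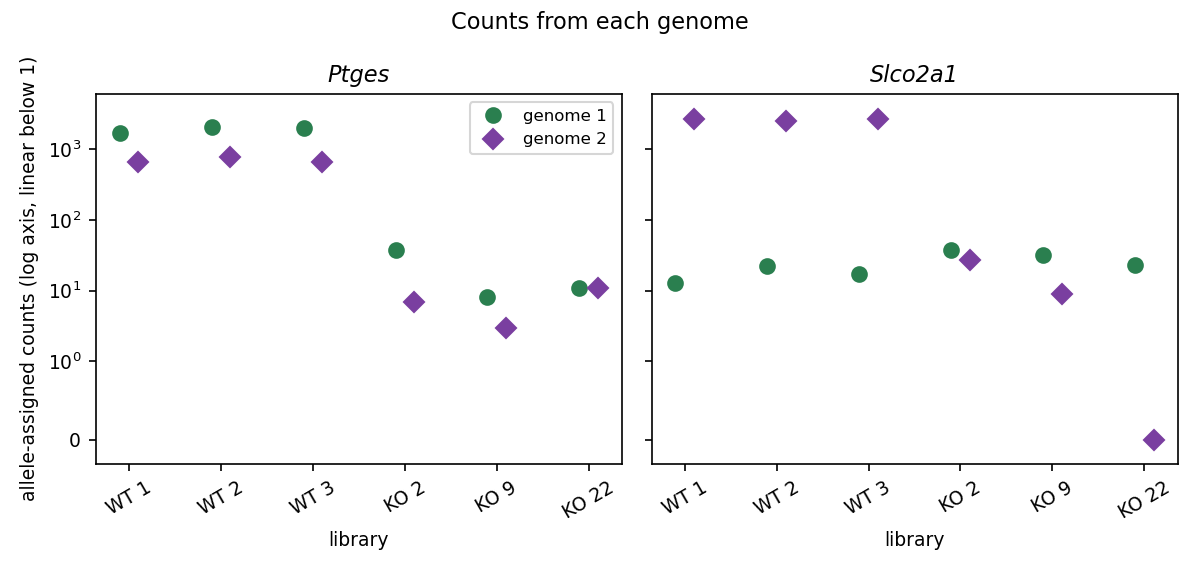
Allele-assigned counts of Ptges and Slco2a1 per library on a log axis that is linear below 1, with circles for genome 1 and diamonds for genome 2. Both genomes of Ptges are low in the knockout lines, while for Slco2a1 the genome 2 counts go from 2514 to 2659 in wild type to 0 to 27 and the genome 1 counts stay between 13 and 38.

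Ptgs2 drew mainly on genome 2 in both groups. It had 72, 82 and 95 counts from genome 1 and 831, 729 and 910 from genome 2 in wild type, a genome 1 share of 9.18% ± 1.09 (SD, n = 3) with an adjusted p of 0.000174. In KO 2, 9 and 22 it had 122, 220 and 70 counts from genome 1 and 463, 562 and 214 from genome 2, a share of 24.5% ± 3.64 (SD, n = 3) with an adjusted p of 0.0146. Every knockout share was above every wild-type share, and so was that of chromosome 1 as a whole, at 61.5% against 36.8%. The call within knockout was lost without KO 2 (adjusted p = 0.0869) or KO 22 (adjusted p = 0.0849). Pla2g4a, the phospholipase that releases arachidonic acid and a neighbour of Ptgs2 on chromosome 1, had like shares of 10.7% ± 1.26 in the wild-type and 21.6% ± 2.71 in the knockout libraries (SD, n = 3).

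Ptgfr drew on genome 1, with 123, 156 and 148 counts against 12, 10 and 10 from genome 2 in wild type, a share of 92.9% ± 1.57 (SD, n = 3) with an adjusted p of 0.000463. In knockout it had 41, 55 and 169 counts from genome 1 and 4, 2 and 0 from genome 2, with an adjusted p of 0.0416. That call was lost without any 1 of the knockout libraries (adjusted p of 0.0738 to 0.113). All of chromosome 3 had a genome 1 share of 52.9% in wild type and 69.3% in knockout. The higher Ptgfr level of KO 22 therefore came with 169 genome 1 counts and none assigned to genome 2. Ptges3 had a genome 1 share of 97.8% ± 0.228 in the wild-type and 99.0% ± 0.143 in the knockout libraries (SD, n = 3), with adjusted p of 7.70e-05 and 0.00227. All of chromosome 10 had 36.9% and 47.9%. Only 8.56% to 10.8% of Ptges3 reads were assigned, and some reads may be split with its copy Ptges3-ps. The part of either in this share was not tested.

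Ptgs1 and Ptger4 were not called in either group. Ptgs1 had genome 1 shares of 46.3% ± 1.77 and 37.0% ± 8.90 in wild type and knockout (SD, n = 3, adjusted p = 0.141 and 0.180). Chromosome 2 as a whole had 60.0% and 57.6%, and Ptgs1 was not tested against those shares. Ptger4 had genome 1 counts of 270, 333 and 333 in wild type and 122, 125 and 130 in KO 2, 9 and 22. Its genome 2 counts were 417, 513 and 351 in wild type and 220, 213 and 524 in KO 2, 9 and 22. The nearly wild-type level of Ptger4 in KO 22 was thus seen in genome 2 counts, while the genome 1 counts of KO 22 were as low as in the other lines. All of chromosome 15 had genome 1 shares of 41.2%, 55.5% and 35.0% in KO 2, 9 and 22, against 56.1% in wild type. KO 22 thus leaned most to genome 2 over the whole chromosome too. The adjusted p was 0.0546 in wild type, and 0.0205 without WT 3, and 0.0734 in knockout.

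**Figure D3:**
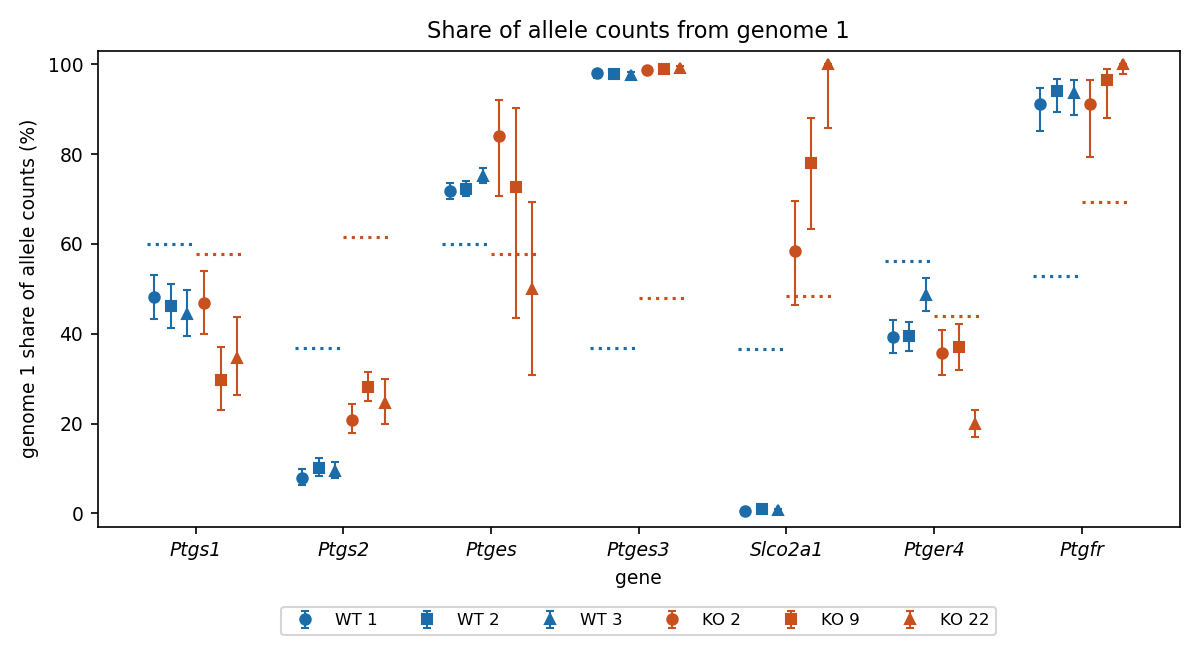
Genome 1 share of the allele-assigned counts, in percent, for the 7 genes with such counts, per library with 95% Wilson intervals; dotted lines are the mean share of the gene's whole chromosome in each group. Slco2a1 moves from under 1% in wild type to over 50% in each knockout line, and Ptges3 and Ptgfr stay above 90% in all 6 libraries.

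Genes next to Ptges and Slco2a1 were read from the same fit. Within 200 kb of Ptges 11 other genes were tested and 0 were called, with log2 fold changes from -0.69 to 0.50. The closest start was that of Tor1b, a torsin ATPase, at 58.0 ± 7.25 CPM in the wild-type and 50.7 ± 16.0 CPM in the knockout libraries (SD, n = 3). Prrx2, a homeobox gene of mesenchyme, stood at 142 ± 6.99 and 117 ± 31.8 CPM. Of the 11, Gm14488 and Asb6 had an unadjusted p under 0.05, at 0.0361 and 0.0157, with adjusted p of 0.159 and 0.103, and DESeq2 also called 0.

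Within 200 kb of Slco2a1, 4 other genes were tested and 0 were called. Ryk, a Wnt co-receptor, stood at 296 ± 16.5 and 282 ± 54.6 CPM in wild type and knockout (SD, n = 3), and Srprb, a subunit of the signal recognition particle receptor, at 114 ± 1.43 and 109 ± 26.6 CPM. Rab6b, a small GTPase of Golgi transport, stood at 11.4 ± 0.328 and 22.8 ± 9.34 CPM, a log2 difference of 1.03 ± 0.30 (SE) with an adjusted p of 0.0931. It was higher in all 3 knockout lines. Gm47416 was under 1 CPM on average in both groups. These last 2 had an unadjusted p under 0.05 in edgeR, and DESeq2 called 1 of the 4, Rab6b. The genome 1 shares of Ryk, Rab6b and Srprb were 30.3% ± 9.29, 16.3% ± 2.16 and 50.4% ± 1.16 in wild type (SD, n = 3), so none of these neighbours came as nearly from 1 genome as Slco2a1.

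**Figure D4:**
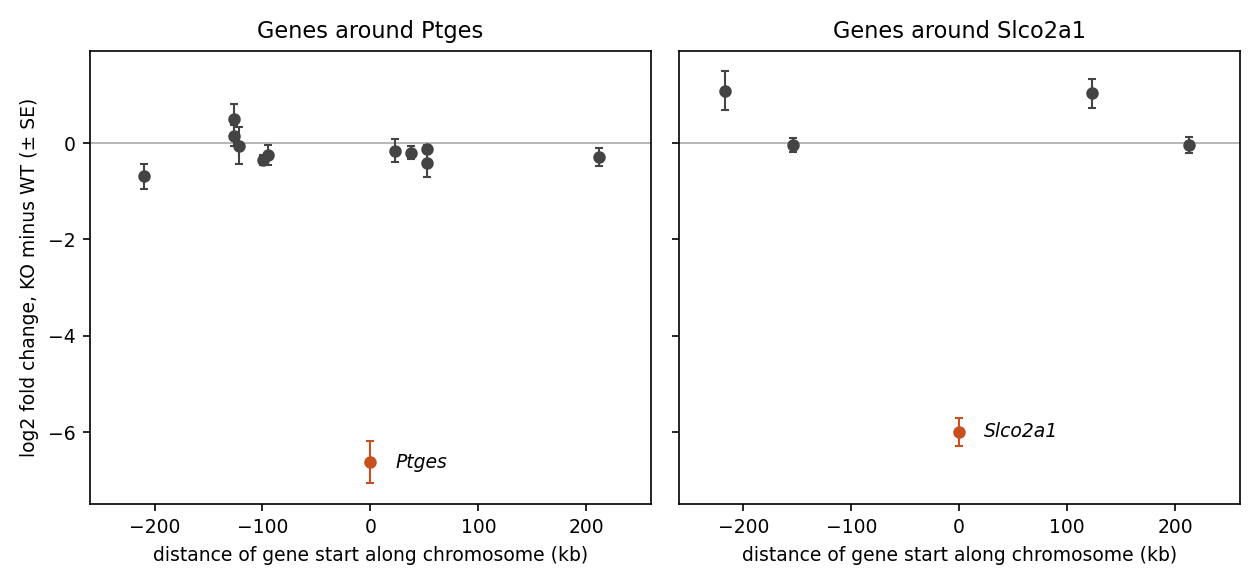
Log2 fold change of knockout against wild type, with its SE, for genes near Ptges and Slco2a1, by the distance of their annotated starts along the chromosome in kb. Orange marks Ptges at -6.62 and Slco2a1 at -5.99, and grey the neighbours, which lie between -0.69 and 1.09.

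Likeness of pattern over the 6 libraries was measured among 9965 genes at 5 CPM or more on average. By distance the gene nearest to Ptges was Slco2a1 and the reverse, but both were chosen for the group difference that makes up most of this pattern, so their likeness is a description only. The distance between centred log2(CPM + 1) values was 0.50, while the median gene was at 6.20 from Ptges and 6.09 from Slco2a1. The next 4 were the same genes for both: Tmem26, Rab3b, Tgfbi and Gm49322. Tmem26, a membrane protein gene, stood at 45.4, 44.7 and 45.8 CPM in wild type and 0.115, 0.407 and 0.278 CPM in knockout. Rab3b, a small GTPase of exocytosis, stood at 51.0, 67.1 and 62.6 CPM against 0.262, 0.260 and 0.180 CPM. Tgfbi, a matrix protein induced by TGF-beta, stood at 19.6, 14.4 and 18.0 CPM against 0.0328, 0.163 and 0. These genes lie on chromosomes 10, 4 and 13. With Pearson's r in place of the distance, 1 of the 5 nearest genes was shared for either gene, so the list rests on the measure. By r, Rab3b was closer to Ptges (0.998) and Tgfbi to Slco2a1 (0.9977) than these were to each other (0.9969), over the 6 libraries.

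The rest of the pathway was read from 7 lists with 135 genes, of which 134 were in the table and 99 passed the filter. By edgeR's test, with p adjusted over all genes, 4 were called higher and 9 lower, and the median log2 fold change was -0.01 against 0.02 over all genes tested. All 13 calls were lost without WT 1, without WT 2 and without WT 3, 27 genes were called without KO 22, and DESeq2 called 22.

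The neighbouring eicosanoid steps gave about as few calls as all genes did. In the 5 lists of arachidonate release, other prostanoid synthases, transport and inactivation, other prostanoid receptors, and lipoxygenase and leukotriene genes, 42 of 72 listed genes were tested, 1 rose and 1 fell, beside 3.54% called higher and 3.19% called lower over all genes tested. Mgll, the monoacylglycerol lipase that frees arachidonic acid from 2-arachidonoylglycerol, rose from 0.201 ± 0.105 to 1.56 ± 0.992 CPM (SD, n = 3), a log2 change of 2.98 ± 0.62 (SE) with an adjusted p of 0.0427. Slco4a1, an organic anion transporter, fell from 1.33 ± 0.160 to 0.131 ± 0.0329 CPM (SD, n = 3), a log2 change of -3.30 ± 0.31 (SE) with an adjusted p of 0.00543. Both were higher or lower in all 3 knockout lines, at low levels.

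Of 15 tested genes of arachidonate release, edgeR called 1, Mgll, 7 had an unadjusted p under 0.05, and DESeq2 called 2, Mgll and Pla2g6. Pla2g6, a calcium-independent phospholipase A2, stood at 76.9 ± 0.954 and 52.4 ± 9.45 CPM in wild type and knockout (SD, n = 3), with no overlap and an adjusted p of 0.0890 in edgeR. Pla2g4a, the cytosolic phospholipase A2, stood at 79.7 ± 5.68 and 58.8 ± 11.1 CPM (adjusted p = 0.139). Anxa1, an annexin known to restrain phospholipase A2, stood at 644 ± 38.4 and 833 ± 166 CPM (adjusted p = 0.143), and Plaat3, a phospholipase, at 65.4 ± 3.38 and 74.5 ± 6.56 CPM (adjusted p = 0.232). None of 6 tested synthases of other prostanoids was called by edgeR, 1 had an unadjusted p under 0.05, and DESeq2 called 1, Cbr1. Gstm2, a glutathione transferase, and Akr1b3, an aldose reductase with prostaglandin F synthase activity, were the highest of these. Gstm2 stood at 113 ± 2.31 and 98.5 ± 6.01 CPM, and Akr1b3 at 62.3 ± 3.24 and 49.1 ± 13.9 CPM.

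Among 6 tested transport and inactivation genes, edgeR and DESeq2 each called 1, Slco4a1. Ptgr1, the reductase that inactivates prostaglandins after their oxidation, stood at 40.2 ± 4.05 and 56.1 ± 14.0 CPM (SD, n = 3, adjusted p = 0.151), and the transporter Slco3a1 at 38.5 ± 0.563 and 40.6 ± 12.3 CPM (adjusted p = 0.783). None of 7 other receptors was called by edgeR, 1 had an unadjusted p under 0.05, and DESeq2 called 1, Ppard. Ptgfrn, a negative regulator of FP, stood at 208 ± 2.98 and 187 ± 36.3 CPM, and Ppard, a nuclear receptor that can bind prostacyclin, at 84.6 ± 3.87 and 58.1 ± 10.6 CPM (adjusted p = 0.0935). Of 8 tested lipoxygenase and leukotriene genes 0 were called by edgeR, 3 having an unadjusted p under 0.05, and DESeq2 called 1, Ephx1. Ephx1, an epoxide hydrolase, stood at 58.1 ± 1.66 and 126 ± 75.9 CPM (adjusted p = 0.122 in edgeR). The highest on average over the 6 libraries were Lta4h, the leukotriene A4 hydrolase, at 182 ± 2.06 and 226 ± 25.5 CPM, and Mgst3, a microsomal glutathione transferase, at 114 ± 3.29 and 77.2 ± 36.4 CPM.

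A list of regulators of Ptgs2 and Ptges holds inducers and also genes that restrain them, such as Zfp36, Dusp1, Nfkbia, Nr3c1 and Tsc22d3. Of its 28 tested genes 5 fell and 0 rose by edgeR, beside 3.19% and 3.54% of all genes, and DESeq2 called 6, the same 5 and Cebpb. Because the list was chosen with earlier results of these data known, no excess is read from this count. Fosl1 and Jun are subunits of the factor AP-1, and Relb, Nfkb2 and Rela are subunits of NF-kappa-B. Not all subunits were called: Nfkb1 stood at 93.8 ± 5.46 and 89.6 ± 11.1 CPM in wild type and knockout (SD, n = 3, adjusted p = 0.887), and the AP-1 subunit Fos at 2.69 ± 0.342 and 2.17 ± 0.677 CPM (adjusted p = 0.582). Fosl1 fell from 70.0 ± 7.94 to 16.8 ± 7.08 CPM (SD, n = 3), a log2 change of -2.03 ± 0.28 (SE) with an adjusted p of 0.0170. Jun fell from 258 ± 2.62 to 160 ± 17.1 CPM, a log2 change of -0.66 ± 0.10 with an adjusted p of 0.0180. Relb, Nfkb2 and Rela fell as well, with log2 changes of -0.81, -0.70 and -0.51 and adjusted p of 0.0320, 0.0320 and 0.0427. For each of these 5 genes every knockout library was below every wild-type library. Mapkapk2, a kinase that stabilises Ptgs2 message, stood at 190 ± 6.08 and 181 ± 24.9 CPM (adjusted p = 0.870). Egr1, the zinc-finger factor known for inducing Ptges and named here after its values were seen, stood at 40.2 ± 2.98 and 41.6 ± 9.52 CPM (adjusted p = 0.819).

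A list of cyclic AMP and G protein signalling genes holds steps after EP4 and also Gnaq and Gna11, which couple to other receptors. Of its 29 tested genes 3 rose and 3 fell by edgeR, again beside 3.54% and 3.19% of all genes, and DESeq2 called 10, the same 6 with Nr4a2, Pde4b, Has2 and Adcy7. Gnas, the stimulatory G protein alpha subunit, rose from 925 ± 29.4 to 1150 ± 19.7 CPM (SD, n = 3), a log2 change of 0.35 ± 0.07 (SE) with an adjusted p of 0.0444. Gnai2, an inhibitory alpha subunit, rose from 476 ± 1.81 to 662 ± 50.1 CPM, a log2 change of 0.51 ± 0.08 with an adjusted p of 0.0247. Pde10a, a phosphodiesterase that breaks down cyclic nucleotides, rose from 1.67 ± 0.369 to 6.76 ± 2.78 CPM, with a log2 change of 2.05 ± 0.35 and an adjusted p of 0.0282. Vegfa, a vascular growth factor, fell from 45.3 ± 0.573 to 27.3 ± 1.09 CPM, a log2 change of -0.70 ± 0.09 with an adjusted p of 0.0125. Sik1, a salt-inducible kinase, and Ppargc1a, a transcriptional coactivator, fell too, with log2 changes of -0.57 and -3.62 and adjusted p of 0.0447 and 0.0427. Ppargc1a was under 1 CPM in all libraries.

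**Figure D5:**
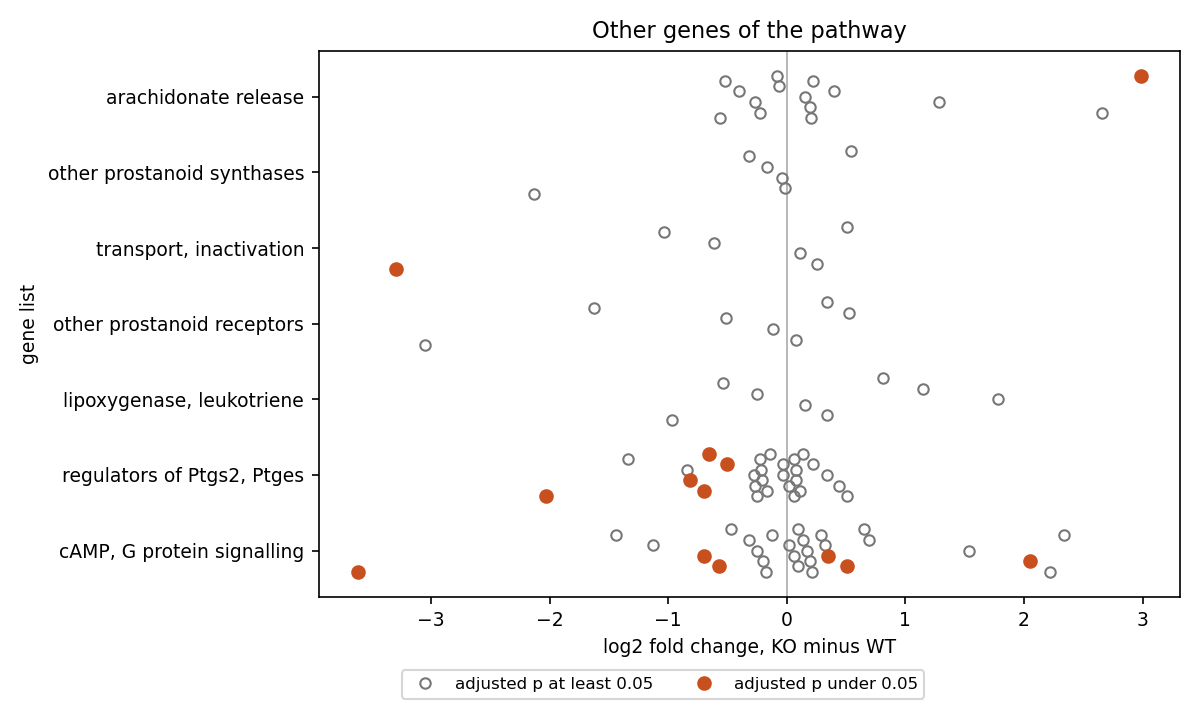
Log2 fold change of knockout against wild type for the 99 tested genes of 7 pathway lists, 1 point per gene, with filled points for genes at an adjusted p under 0.05. Calls are 5 lower genes among the regulators of Ptgs2 and Ptges, 3 higher and 3 lower in cyclic AMP and G protein signalling, and 1 each in arachidonate release and transport.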

How the data were processed

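PolyA RNA of 3 wild-type and 3 SIRT7-knockout libraries was analysed, and 9 of 15 labelled samples were not analysed here. The deposited values are estimated counts, for genes and transcripts over all reads and for genes over reads split by genome. Per the submitters' processing notes the tools were StringTie 1.3.3, HISAT2 2.1.0, DESeq2 1.32.0, FastQC 0.11.3, SAMtools 0.1.19 and Trimmomatic 0.36, with builds mm10 and GRCm38, while their annotation, strand and other settings were not stated. All values were whole, so none was rounded. Knockout columns were matched to titles by line number; an earlier knockout group has no line numbers, so the columns may hold its libraries, whose genotype is the same. The titles of the numbered lines are worded otherwise than those of the wild type, which share their pattern with the earlier knockout group. If the columns hold the numbered lines, any difference between these sets of samples cannot be told apart from genotype. Positions come from GENCODE M21 on GRCm38, which held 55227 of the 55487 gene IDs.

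The test between groups was the quasi-likelihood test of edgeR 4.0.16 in R 4.3.3 with TMM scaling, its default filter and Benjamini-Hochberg adjustment over all genes tested; adjusted p under 0.05 was called. SE is the absolute log2 fold change over the square root of F. Genomes were compared within a group with a term per library, where the mean was 20 assigned counts or more. CPM uses total gene counts, and TPM uses transcript counts and annotated lengths. Every pair of libraries differed by more than sampling noise. Intervals cover counting error only. DESeq2 1.42.0, other scalings and filters, limma 3.58.1 and leaving out each library were alternatives. The methods were also run on simulated data in which all libraries had the same spread. The groups here differed, with a coefficient of variation of 0.135 in wild type and 0.378 in knockout. That run therefore cannot show how the tests behave under such unequal spread.

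The members and lists were chosen with earlier results of these data known. The rule for naming covered all members, list genes called by edgeR and the 2 genes of highest CPM in each list. It also covered tested neighbours within 200 kb and the 5 nearest patterns. Named outside this rule were list genes that only DESeq2 called, Pla2g4a, Nfkb1, Fos and Egr1, examples of what a list holds, and the genes under other observations.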

Additional observations from a re-analysis of the deposited data

Results flagged for a closer look

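The genome 1 share of Slco2a1 was 0.665% ± 0.192 in the wild-type and 78.8% ± 20.8 in the knockout libraries (SD, n = 3 each). It stands out because every wild-type library had more counts from genome 2 and every knockout library more from genome 1. The share of all of chromosome 9 was 36.6% and 48.4%. The difference between the groups was not tested, and the knockout shares rest on few assigned counts. These were 38, 32 and 23 from genome 1 and 27, 9 and 0 from genome 2 in KO 2, 9 and 22. Of 12445 genes with enough allele counts in both groups, 1821 (14.6%) changed the leading genome in the same all-against-all way, 82 of 698 on chromosome 9 (11.7%), so Slco2a1 is 1 of many such genes. It was 1 of the 7 prostaglandin genes with allele counts and 16 of 81 other pathway genes did the same (19.8%).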

How the results depend on the processing

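Of all genes, 1123 were called in knockout against wild type, 2590 by DESeq2, 396 with no filter on low counts, and 45 to 2482 when 1 library was left out; without WT 1, 2 or 3 the counts were 51, 45 and 50. Of the other pathway genes 13 were called, 22 by DESeq2, 4 with no filter, and 0 to 27 when 1 library was left out. Of the members 3 were called lower, and 2 to 5 when 1 library was left out. Within knockout 4014 genes were called between genomes, and 225 to 2945 when 1 library was left out (756 without KO 2, 225 without KO 22). Every fit with a library left out had fewer samples, whether its count rose or fell, and the cause of these moves was not tested. With 1 library fewer the wild-type calls of Slco2a1, Ptges, Ptgs2, Ptges3 and Ptgfr were kept. No tested member changed the sign of its log2 fold change under the 11 alternatives. Genes with few counts, such as Ptges and Slco2a1 in knockout, limit the allele shares. No paired analysis was possible because no label links a knockout line to a wild-type library. The knockout columns carry line numbers, 2, 9 and 22, and the wild-type columns replicate numbers, 1 to 3.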

Other observations

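Several listed genes that were not called varied strongly between the knockout lines, and they are named here after their values were seen. Cbr1, a carbonyl reductase that converts prostaglandin E2 to prostaglandin F2 alpha, stood at 8.53, 8.04 and 7.43 CPM in wild type and at 0.393, 1.02 and 3.86 CPM in KO 2, 9 and 22 (adjusted p = 0.139). Cbr3, a related reductase, stood at 16.3, 17.2 and 16.7 CPM and at 5.03, 3.94 and 14.7 CPM (adjusted p = 0.243). Ptgir, the prostacyclin receptor, stood at 2.69, 2.17 and 3.19 CPM and at 0.426, 0.195 and 1.90 CPM (adjusted p = 0.243). In each of these 3 genes KO 22 was the knockout line nearest to wild type, as it was for Ptger4. Abcc4, an exporter of prostaglandins, had the other order, with 13.7, 13.8 and 13.9 CPM in wild type and 10.5, 12.5 and 3.56 CPM in KO 2, 9 and 22 (adjusted p = 0.397), as Ptgs2 did. Pparg, a nuclear receptor for prostaglandin metabolites, stood at 1.95, 2.96 and 2.88 CPM in wild type and was at 0 in KO 2 and KO 22 but at 0.911 CPM in KO 9 (adjusted p = 0.238).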
